A study of Mus musculus with 23 samples.

Results

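Blockade of the glucagon receptor (GCGR) in the livers of mice on a high-fat diet (HFD) was examined in 12 of the 23 RNA-seq libraries of the study. Libraries 18 to 23, by the numbers in their titles, are from HFD mice given REGN1193, an antibody that blocks GCGR, and libraries 12 to 17 are from HFD mice given REGN496. Only the blocking antibody is tied to a code in the labels, so REGN496 is read here, by elimination, as the isotype control. All mice were C57BL/6J males, kept on their diet for 4 months and then given antibody over 3 weeks, at a dose of 10 mg/kg. The remaining 11 libraries are from chow-fed mice, 5 given REGN496 and 6 given REGN1193, and were used for the estimate of spread and for the antibody effect on chow. The model is diet-induced obesity in 1 inbred strain and 1 sex, and liver RNA was sequenced. The labels give no batch, date or time of sampling and do not state that each library is a separate mouse, so every p-value reflects only the variation among these libraries, which may be technical. Of 24475 genes, the 11939 with an RPKM (reads scaled to gene length and to the mapped reads of the library) of at least 0.5 in at least 5 of the 23 libraries were tested.

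Glucagon is secreted by the pancreatic islet when glucose is low or amino acids are high. Its receptor on hepatocytes raises cyclic AMP, which drives glycogen breakdown, gluconeogenesis, amino acid uptake and the conversion of amino nitrogen to urea. Blocking the receptor is known to lower blood glucose and to raise circulating glucagon and amino acids. Below, libraries 12 to 17 are called control libraries and 18 to 23 antibody libraries, and levels are RPKM given as the lowest, median and highest of the 6 libraries of a group. Log2 fold changes are antibody minus control computed from log2(RPKM + 1), so that changes of weakly expressed genes appear smaller than they are, and carry their SE after ±. A gene is said to rise or fall where limma's p, adjusted by Benjamini and Hochberg over all tested genes, was under 0.05. Where a call was lost on leaving out 1 library of the 12, those libraries are named; where none of them ended it but another alternative did, that alternative is named; the highest adjusted p over all alternatives follows in brackets.

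Relative depth of the HFD libraries, from the size of single-read steps in the table, was 0.902 to 1.128 of the typical library, which held about 16000000 reads. Libraries 19 and 20, both of GCGR antibody, correlated least with their own group, at means of 0.9800 and 0.9789 against 0.9836 to 0.9905 in the others. In the clock genes, libraries 12, 13 and 20 stood apart: Arntl, the positive arm of the clock, was at 3.51, 3.79 and 2.54 RPKM there against at most 1.59 elsewhere, and its output gene Dbp at 21.4, 19.6 and 12.9 against at least 50.1. Libraries 21 and 23 held 586 and 717 RPKM of Selenbp2, where no other HFD library exceeded 109. Results that depend on these libraries are given with and without them. Hepatocyte markers led every library, with Alb at 26485 RPKM or more. Of 6 pancreas markers 4 (Prss2, Cpa1, Pnlip and Ctrb1) were at 0 in all 12. The pancreas list still summed to 6.826 to 27.19 RPKM in control and 8.102 to 41.73 in antibody libraries, highest in libraries 23 and 21. Of 8 adipose markers only the hormone gene Lep was at 0 in all 12. The adipose list summed to 10.11 to 95.46 RPKM in control and 16.82 to 39.95 in antibody libraries.

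**Figure D1:**
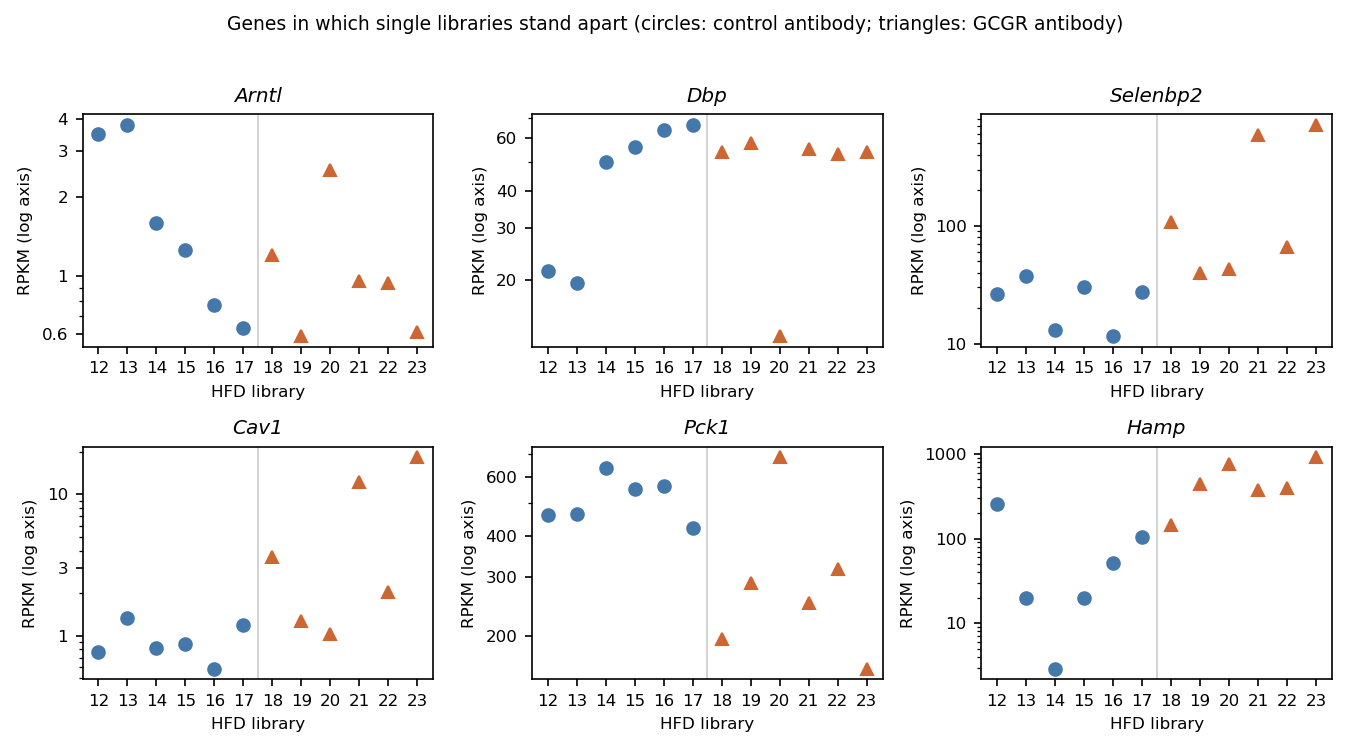
RPKM (vertical axes, logarithmic) of 6 genes in each of the 12 HFD libraries (horizontal axes, library number), circles for control antibody and triangles for GCGR antibody. Libraries 12, 13 and 20 are high in Arntl and low in Dbp, libraries 21 and 23 are the highest in Selenbp2 and Cav1, library 20 is the highest in Pck1, and Hamp ranges from 2.92 RPKM in library 14 to 909 in library 23.

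With GCGR antibody 636 genes were higher and 253 lower, that is 5.33% and 2.12% of those tested, or 7.45% together. Most changes were small: 34 genes rose and 24 fell by at least 2-fold. The 6 libraries of 1 group lay wholly above or below the other 6 in 2.85% of genes, 239 higher and 101 lower. The median log2 fold change of all tested genes was 0.05, and it was 0.01 after median-ratio scaling, which gave 432 genes higher and 419 lower. Without libraries 19 and 20 the counts were 839 and 472. Single libraries also moved them: without library 19 they were 1151 and 453, without library 12 375 and 169, and without library 14 the count of higher genes was 418. Gcgr itself, the transcript of the blocked receptor, ran from 109 to 122 RPKM in control and from 115 to 122 in antibody libraries (log2 fold change 0.01 ± 0.05, adjusted p = 0.898), and its log2 fold change was -0.04 after median-ratio scaling. Blocking the protein need not alter its transcript.

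**Figure D2:**
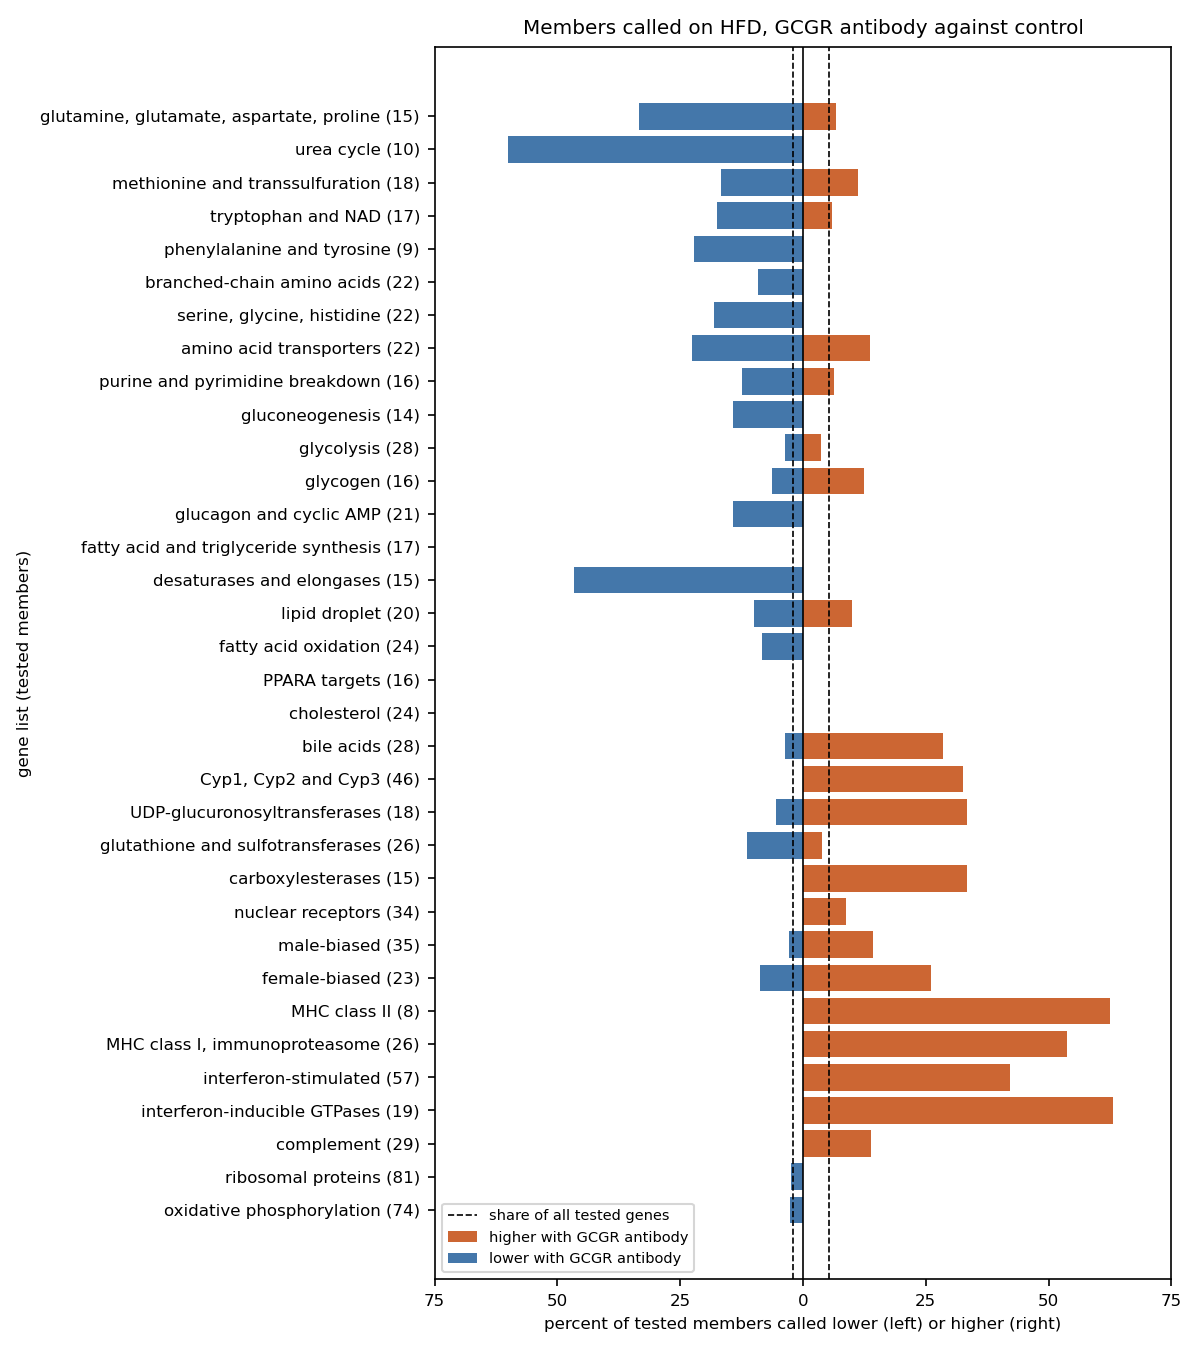
Percent of the tested members (horizontal axis) of 34 gene lists (vertical axis, number of tested members in brackets) that were higher (right) or lower (left) with GCGR antibody on HFD by limma at an adjusted p under 0.05. The dashed lines mark the 5.33% higher and 2.12% lower of all tested genes. Interferon-inducible GTPases reach 63.2% higher and urea cycle genes 60% lower.

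Among genes that move nitrogen off amino acids, the aspartate aminotransferase Got1 and the glutaminase Gls2 fell by over 2-fold, along with Oat and the urea cycle gene Ass1. Over 7 lists that cover the urea cycle and the breakdown of amino acids, 25 of 113 tested genes fell (22.1%, against 2.12% of all genes) and 4 rose, with a median log2 fold change of -0.09 against 0.05. The count that rose was 10 without library 19 and 11 without libraries 19 and 20, while the count that fell was 18 to 26 with 1 library left out and 16 in the fit to HFD libraries alone. In the glutamine, glutamate, aspartate and proline list 5 of 15 fell (33.3%). Got1, which moves nitrogen between glutamate and aspartate in the cytosol (gene ID 14718, chromosome 19, 43499752 to 43524605 of GRCm38), was at 57.7, 93.8 and 110.2 RPKM in control and 16.6, 18.9 and 25.5 in antibody libraries (log2 fold change -2.09 ± 0.16, adjusted p = 2.23e-08). For Gls2, which frees ammonia from glutamine (gene ID 216456, chromosome 10, 128194635 to 128210004 of GRCm38), levels were 88.1, 110.1 and 139 RPKM in control and 27.3, 33.6 and 43.9 in antibody libraries (log2 fold change -1.63 ± 0.12, adjusted p = 1.49e-08). Oat, which turns ornithine toward glutamate, was at 328, 555 and 679 RPKM in control and 99.1, 146 and 206 in antibody libraries (log2 fold change -1.72 ± 0.18, adjusted p = 2.65e-06). In all 3 genes the highest antibody library lay below the lowest control library. The glutamine synthetase Glul, which fixes ammonia in pericentral hepatocytes, went the other way, at 419.9, 495 and 534 RPKM in control and 512, 713 and 774 in antibody libraries (log2 fold change 0.48 ± 0.09, adjusted p = 0.00275), and only library 19 of the antibody group lay within the control range. The transaminases Got2 and Gpt did not pass, at -0.10 ± 0.05 (adjusted p = 0.223) and 0.08 ± 0.10 (adjusted p = 0.655).

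**Figure D3:**
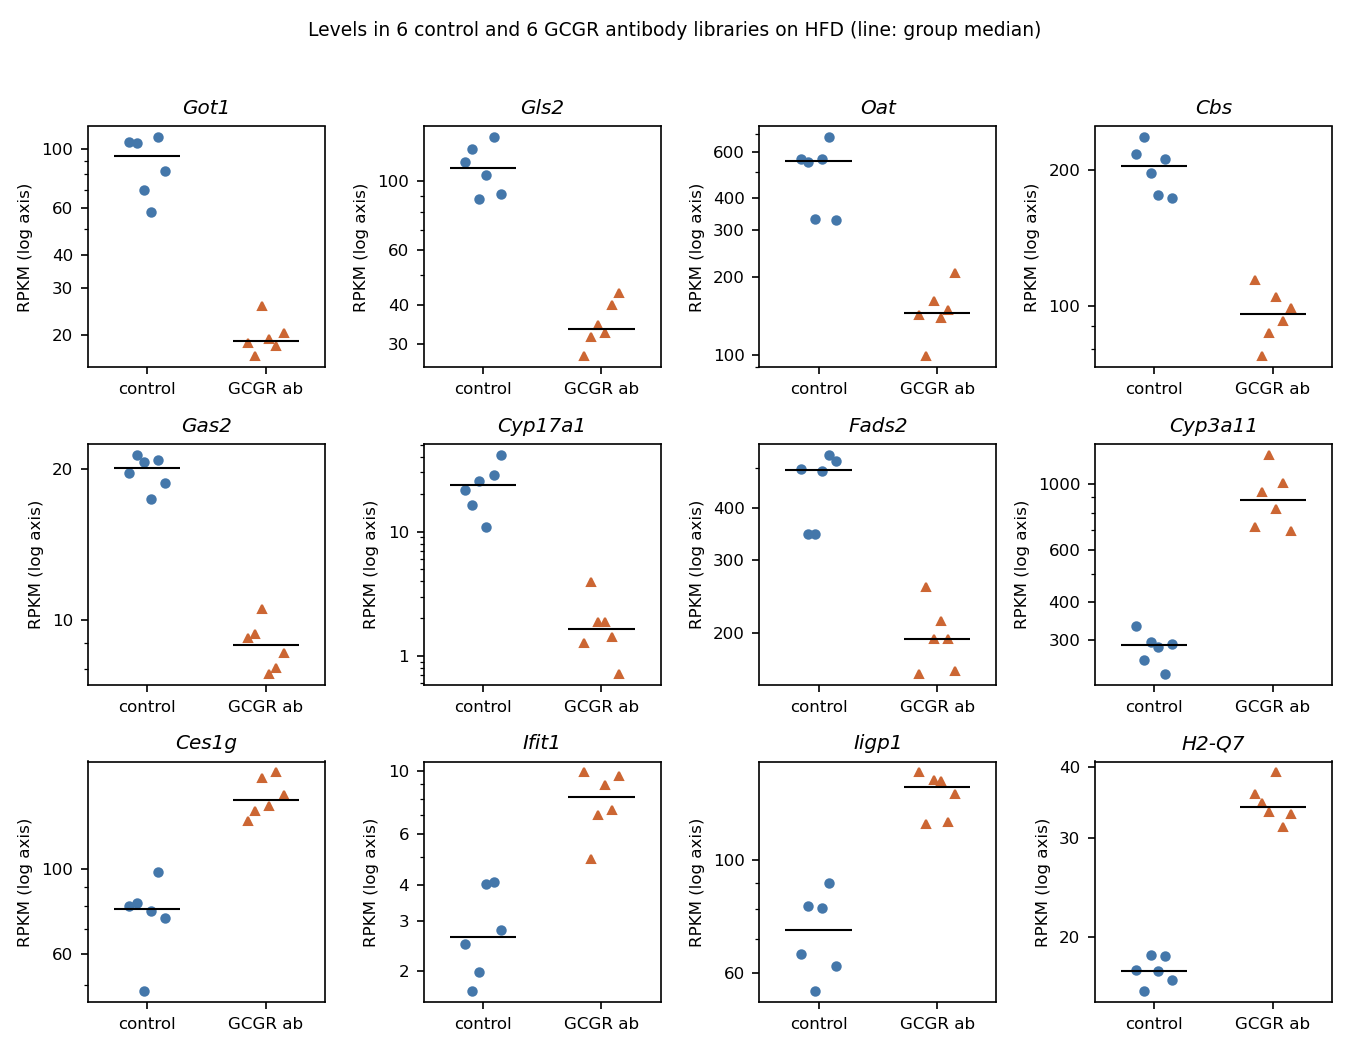
RPKM (vertical axes, logarithmic) of 12 genes in the 6 control (circles) and 6 GCGR antibody libraries (triangles) on HFD; each point is 1 library and the horizontal line is the group median. In none of the 12 genes do the groups overlap, and Got1, for example, has medians of 93.8 and 18.9 RPKM.

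Urea cycle enzymes and carriers fell in 6 of 10 cases (60%, against 2.12% of all genes) and none rose, with a median log2 fold change of -0.32. Ass1, argininosuccinate synthetase, was at 1088, 1506 and 1925 RPKM in control and 569, 625 and 682 in antibody libraries (log2 fold change -1.20 ± 0.14, adjusted p = 1.11e-05). Arg1, which splits arginine into urea and ornithine, was at 544, 557 and 634 RPKM in control and 334, 386 and 423 in antibody libraries (log2 fold change -0.58 ± 0.08, adjusted p = 4.5e-05). Slc25a22, a mitochondrial glutamate carrier, was at 61.3, 69.03 and 77.2 RPKM in control and 32.4, 38.5 and 46.1 in antibody libraries (log2 fold change -0.80 ± 0.09, adjusted p = 7.15e-06). The groups did not overlap in these 3 genes. The lyase Asl changed by -0.37 ± 0.09 (adjusted p = 0.0116), a call lost in the fit to HFD libraries alone (adjusted p up to 0.0551), and the ornithine carrier Slc25a15 by -0.36 ± 0.08 (adjusted p = 0.00806). In both, library 20 was the antibody library within the control range, at 212 and 60.8 RPKM. Cps1, the entry enzyme of the cycle, was at 316, 388 and 606 RPKM in control and 213, 385 and 460 in antibody libraries and did not pass (log2 fold change -0.22 ± 0.16, adjusted p = 0.411).

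Sulfur amino acid genes split by step. Cbs, which commits homocysteine to transsulfuration, was at 174, 204 and 237 RPKM in control and 77.03, 95.7 and 114 in antibody libraries (log2 fold change -1.08 ± 0.08, adjusted p = 2.23e-08). Every antibody library was below every control library. Gnmt, the main consumer of excess S-adenosylmethionine, was at 636, 954 and 1107 RPKM in control and 403, 578 and 729 in antibody libraries (log2 fold change -0.68 ± 0.14, adjusted p = 0.00288), with library 23 of the antibody group inside the control range, a call lost without libraries 12, 13 and 20 (adjusted p up to 0.0548). Suox, which oxidises sulfite, fell by 0.43 on the log2 scale (adjusted p = 0.0014). Genes that rose were Mat2a, the methionine adenosyltransferase not typical of adult hepatocytes, at 15.1, 17.4 and 18.3 RPKM in control and 22.4, 23.3 and 30.4 in antibody libraries (log2 fold change 0.54 ± 0.09, adjusted p = 0.000987), and Cdo1, which turns cysteine to its sulfinic acid, at 0.31 ± 0.07 (adjusted p = 0.0101). Cth, which releases cysteine from cystathionine, changed by -0.37 ± 0.13 (adjusted p = 0.0897) on HFD and by -1.06 ± 0.14 on chow (adjusted p = 0.000141), and the difference between the diets did not pass (adjusted p = 0.184).

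Breakdown of other amino acids fell in part. Sds, which deaminates serine to pyruvate, was at 75.1, 99.6 and 113 RPKM in control and 20.4, 27.2 and 96.8 in antibody libraries (log2 fold change -1.53 ± 0.27, adjusted p = 0.000927). Its level in library 20, 96.8 RPKM, lay among the controls, and the other 5 antibody libraries lay below all of them. The related Sdsl was at 4.41, 5.26 and 7.45 RPKM in control and 2.01, 2.55 and 3.95 in antibody libraries (log2 fold change -0.80 ± 0.12, adjusted p = 0.000286). In the serine, glycine and histidine list 4 of 22 fell (18.2%, against 2.12% of all genes), and 3 of these calls held without any 1 library, while without library 20 7 fell. In the phenylalanine and tyrosine list 2 of 9 fell, without overlap of the groups: Hgd, homogentisate dioxygenase, at -0.47 ± 0.07 (adjusted p = 0.000165), and Qdpr, which regenerates tetrahydrobiopterin, at -0.39 ± 0.07 (adjusted p = 0.00151). Tdo2, which opens the tryptophan ring, did not pass (-0.12 ± 0.11, adjusted p = 0.542). In the tryptophan and NAD list 3 of 17 were called lower, all enzymes further down that route (Acmsd, Haao and Kynu, at -0.56, -0.27 and -0.34), and 0 of the 3 calls held without any 1 library. The call of Acmsd was lost without any of libraries 13, 14, 16 or 20 (adjusted p up to 0.115). That of Haao was lost without any of libraries 12, 16 or 20 (adjusted p up to 0.202). That of Kynu was lost without any of libraries 12 to 16, 19 or 21 to 23 (adjusted p up to 0.132). Nampt, which salvages NAD from nicotinamide, rose, at 7.93, 11.6 and 12.1 RPKM in control and 13.4, 16.4 and 21.6 in antibody libraries (log2 fold change 0.60 ± 0.13, adjusted p = 0.00522), a call lost without libraries 12, 13 and 20 (adjusted p up to 0.0886). Of 22 genes of branched-chain amino acid breakdown 2 fell (9.09%, against 2.12% of all genes), among them Acat1, a thiolase shared with ketone body metabolism (-0.34 ± 0.08, adjusted p = 0.00681). That count was 1 to 3 with 1 library left out and moved by over 1.5 times without any of libraries 12, 15 to 17, 19, 21 or 22.

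Without library 20, 2 hormone-responsive genes were called that were not called in the fit to all libraries. Tat, tyrosine aminotransferase, was at 209, 339.8 and 385 RPKM in control and 105, 182 and 499 in antibody libraries and did not pass (log2 fold change -0.71 ± 0.26, adjusted p = 0.0984). Its highest antibody value, 499 RPKM, was library 20, and without that library the log2 fold change was -0.99 (adjusted p = 0.00369). Pck1, the cytosolic PEP carboxykinase of gluconeogenesis, was at 421, 508 and 639.5 RPKM in control and 159.9, 269.7 and 686 in antibody libraries (log2 fold change -0.86 ± 0.35, adjusted p = 0.131). Library 20 held 686 RPKM, above all controls, and without it the value was -1.12 (adjusted p = 0.0407). G6pc, the last step of glucose release, was also highest in library 20, at 199 RPKM, and changed by -0.26 ± 0.32 (adjusted p = 0.65).

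Amino acid transporters moved in both directions, 5 of 22 lower (22.7%, against 2.12% of all genes) and 3 higher (13.6%, against 5.33%). Slc7a2, the cationic amino acid carrier that brings arginine into hepatocytes, was at 51.2, 53.98 and 72.9 RPKM in control and 22.1, 29.3 and 49.2 in antibody libraries (log2 fold change -0.90 ± 0.18, adjusted p = 0.00345). Slc3a1, the heavy chain of a cystine and dibasic amino acid transporter, was at 21.01, 32.7 and 37.2 RPKM in control and 10.1, 17.03 and 19.3 in antibody libraries (log2 fold change -0.88 ± 0.19, adjusted p = 0.00493). The groups did not overlap in either. The system A and N carriers Slc38a4 and Slc38a3, which take up alanine and glutamine, fell by 0.40 and 0.57. The call of Slc38a4 was lost without library 16 (adjusted p up to 0.073). That of Slc38a3 was lost without library 16 or 20 (adjusted p up to 0.0972). Slc1a4, a neutral amino acid exchanger, fell by 0.70, a call lost in the fit to HFD libraries alone and without libraries 21 and 23 (adjusted p up to 0.0786). The glycine transporter Slc6a9 rose, at 8.16, 9.61 and 11.5 RPKM in control and 11.5, 12.5 and 16.02 in antibody libraries (log2 fold change 0.37 ± 0.09, adjusted p = 0.0156), a call lost without libraries 12, 13 and 20 (adjusted p up to 0.139). Of the 3 calls of higher transporters 1 held without any 1 library, and of the 5 lower 3 did. The higher count was 1 to 5 with 1 library left out and moved by over 1.5 times without any of libraries 12, 14, 19, 21 or 22. The lower count was 3 to 6 with 1 library left out and moved by over 1.5 times without library 16. Of 16 purine and pyrimidine breakdown genes, Uox, which oxidises uric acid in mice, fell, at 856, 988 and 1304 RPKM in control and 576, 633 and 705 in antibody libraries (log2 fold change -0.69 ± 0.10, adjusted p = 0.000217), with no overlap of the groups.

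Among carbohydrate genes 14.3% of glucose output, 7.14% of glycolytic and 18.8% of glycogen genes passed, against 7.45% of all genes. Of 14 genes of glucose output 2 fell (14.3%, against 2.12% of all genes), and 1 of these calls held without any 1 library. The count was 1 to 4 with 1 library left out and moved by over 1.5 times without any of libraries 12, 14 to 18 or 20 to 23. Fbp1, fructose-1,6-bisphosphatase, was at 614, 794 and 890.2 RPKM in control and 389, 461 and 534 in antibody libraries (log2 fold change -0.72 ± 0.09, adjusted p = 1.83e-05), without overlap. Ldha, which interconverts lactate and pyruvate, was at 449, 581 and 826 RPKM in control and 304, 371 and 429 in antibody libraries (log2 fold change -0.67 ± 0.11, adjusted p = 0.000454), again without overlap, and was the only 1 of 28 glycolytic genes that fell, against 3 without library 13. In glycogen metabolism the branching enzyme Gbe1 rose, at 0.52 ± 0.13 (adjusted p = 0.0212), a call lost in the fit to HFD libraries alone and without libraries 12, 13 and 20 (adjusted p up to 0.131).

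Of 21 genes of the glucagon receptor and cyclic AMP pathway, 3 fell (14.3%, against 2.12% of all genes) and none rose. Crem, a cyclic AMP-responsive transcription factor, was at 6.42, 7.63 and 9.84 RPKM in control and 4.66, 5.13 and 5.77 in antibody libraries (log2 fold change -0.52 ± 0.09, adjusted p = 0.00119). The groups did not overlap. Pde4b, a phosphodiesterase that degrades cyclic AMP, was at 2.36, 3.88 and 7.13 RPKM in control and 1.55, 1.91 and 2.53 in antibody libraries (log2 fold change -0.82 ± 0.17, adjusted p = 0.00302). Kiss1, which encodes the peptide kisspeptin, was at 0.415, 0.873 and 1.31 RPKM in control and 0.129, 0.244 and 0.605 in antibody libraries (log2 fold change -0.55 ± 0.11, adjusted p = 0.00348). In both, library 20 was the only antibody library that reached the control range. In the insulin and FOXO list 2 of 16 were called higher (12.5%, against 5.33% of all genes). Among them was the pseudokinase Trib1 at 0.63 ± 0.15 (adjusted p = 0.01), a call lost without libraries 12, 13 and 20 (adjusted p up to 0.0995). The count was 1 to 2 with 1 library left out and moved by over 1.5 times without any of libraries 12 to 17 or 20 to 22.

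Fads2, Fads1, Elovl2 and Elovl5, which build long polyunsaturated fatty acids, and Scd1 fell. In the desaturase and elongase list 7 of 15 fell (46.7%, against 2.12% of all genes) and none rose, with a median of -0.25. Fads2, the delta-6 desaturase of polyunsaturated fatty acids, was at 348, 495 and 539 RPKM in control and 159, 193 and 258 in antibody libraries (log2 fold change -1.21 ± 0.13, adjusted p = 2.72e-06). Its neighbour Fads1, the delta-5 desaturase, was at 168, 239.7 and 266 RPKM in control and 99.3, 115 and 159 in antibody libraries (log2 fold change -0.93 ± 0.12, adjusted p = 3.89e-05). Elovl2, which lengthens long polyunsaturated fatty acids, was at 171, 191 and 201 RPKM in control and 85.8, 105 and 139 in antibody libraries (log2 fold change -0.77 ± 0.10, adjusted p = 5.29e-05). Elovl5, which acts between the 2 desaturation steps, was at 217, 295 and 399 RPKM in control and 58.4, 93.4 and 212 in antibody libraries (log2 fold change -1.42 ± 0.25, adjusted p = 0.000825). Elovl3, an elongase of very long saturated and monounsaturated chains that is male-biased in mouse liver, was at 34.1, 63.9 and 138 RPKM in control and 9.103, 19.01 and 33.6 in antibody libraries (log2 fold change -1.89 ± 0.35, adjusted p = 0.00133). In these 5 genes no antibody library reached the lowest control library. Scd1, stearoyl-CoA desaturase, was at 763, 1352 and 2227 RPKM in control and 354, 589.6 and 1162 in antibody libraries (log2 fold change -1.13 ± 0.28, adjusted p = 0.0137), with library 19 inside the control range, a call lost in the fit to HFD libraries alone and without libraries 21 and 23 (adjusted p up to 0.0548). None of 17 genes of fatty acid and triglyceride synthesis passed, nor more than 2 in either direction with 1 library left out, and Fasn, fatty acid synthase, changed by -0.12 ± 0.18 (adjusted p = 0.717).

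Among 20 lipid droplet genes, Plin2, the main droplet coat protein of hepatocytes, was at 253, 363 and 401 RPKM in control and 159, 183 and 293 in antibody libraries (log2 fold change -0.75 ± 0.16, adjusted p = 0.00548), and Tm6sf2, which loads lipid onto VLDL, fell by 0.61 (adjusted p = 0.00183). Hsd17b11, a droplet-associated dehydrogenase, rose, at 80.9, 90.1 and 99.5 RPKM in control and 118, 138 and 170.3 in antibody libraries (log2 fold change 0.62 ± 0.08, adjusted p = 5.36e-05). The groups overlapped in the first pair and not in Hsd17b11. Without libraries 19 and 20, 8 of the droplet genes fell in place of 2, and without library 20 4 did. Of 24 fatty acid oxidation genes 2 fell, a count that was 9 after median-ratio scaling, 6 without libraries 19 and 20 and 0 in the fit to HFD libraries alone. It was 1 to 6 with 1 library left out and moved by over 1.5 times without any of libraries 12, 19 or 20. None of 16 PPARA targets and none of 24 cholesterol synthesis and uptake genes passed, though without libraries 19 and 20, 2 PPARA targets fell and 3 cholesterol genes rose, the latter 2 without library 20. The hepatic lipase gene Lipc rose, at 33.4, 46.5 and 58.4 RPKM in control and 62.99, 67.8 and 79.5 in antibody libraries (log2 fold change 0.62 ± 0.11, adjusted p = 0.000942), as did Scarb1, the HDL receptor, at 44.1, 47 and 58.4 RPKM in control and 59.4, 71.6 and 92.2 in antibody libraries (log2 fold change 0.56 ± 0.10, adjusted p = 0.000782). Neither showed overlap of the groups.

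Cyp3a11, Cyp2e1 and other P450 enzymes of drug and steroid metabolism rose. In the Cyp1, Cyp2 and Cyp3 list 15 of 46 rose (32.6%, against 5.33% of all genes) and none fell, with a median of 0.26. The count was 9 to 18 with 1 HFD library left out, lowest without library 22. Cyp3a11, the main inducible Cyp3a of mouse liver (gene ID 13112, chromosome 5, 145854607 to 145879854 of GRCm38), was at 231, 288 and 333 RPKM in control and 694, 883 and 1247 in antibody libraries (log2 fold change 1.66 ± 0.14, adjusted p = 7.86e-08). Cyp3a25, a constitutive member, was at 119, 153 and 178 RPKM in control and 209, 237 and 288 in antibody libraries (log2 fold change 0.65 ± 0.13, adjusted p = 0.00288). Cyp3a44, female-biased in mice, was low throughout, at 0.123, 0.1896 and 0.274 RPKM in control and 0.406, 0.602 and 1.48 in antibody libraries (log2 fold change 0.55 ± 0.12, adjusted p = 0.00428). In these 3 genes every antibody library was above every control. Cyp2e1, the pericentral ethanol-metabolising enzyme and the most abundant P450 named here, was at 2997, 3832 and 4504 RPKM in control and 4334, 5816 and 6298 in antibody libraries (log2 fold change 0.56 ± 0.11, adjusted p = 0.00298), with library 19 in the control range. Cyp2f2, periportal in mice, changed by 0.47 ± 0.11 (adjusted p = 0.0114), a call lost in the fit to HFD libraries alone (adjusted p up to 0.0665). Reads of near-identical Cyp2c, Cyp2d and Cyp3a copies may be split between genes, so single members are uncertain. Among 34 nuclear receptors 3 were called higher (8.82%, against 5.33% of all genes) and none lower. Nr1h4 (FXR), the bile acid receptor, was at 47.04, 53.9 and 57.6 RPKM in control and 64.4, 70.1 and 75.5 in antibody libraries (log2 fold change 0.41 ± 0.08, adjusted p = 0.00195). The count of receptors was 6 without library 19.

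Cyp17a1, steroid 17-alpha-hydroxylase, had the largest decrease of all called genes (gene ID 13074, chromosome 19, 46667165 to 46673000 of GRCm38). It was at 10.8, 23.6 and 41.5 RPKM in control and 0.714, 1.63 and 3.93 in antibody libraries (log2 fold change -3.11 ± 0.25, adjusted p = 2.52e-08). All 6 antibody libraries lay below the lowest control library.

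Ugt1a1, several Ugt2b genes and 5 carboxylesterases rose. Of 18 UDP-glucuronosyltransferases 6 rose (33.3%, against 5.33% of all genes) and 1 fell (5.56%, against 2.12%). Of the rises 4 held without any 1 library. The gene that fell was Ugt1a9, at -0.84 ± 0.24 (adjusted p = 0.0372), a call lost without any of libraries 12, 16 to 18 or 21 to 23 (adjusted p up to 0.125). Ugt1a1, which conjugates bilirubin, was at 198, 224 and 247 RPKM in control and 296, 316 and 382 in antibody libraries (log2 fold change 0.56 ± 0.09, adjusted p = 0.000229), and Ugt2b34 at 97.8, 113 and 121 RPKM in control and 136, 182 and 202 in antibody libraries (log2 fold change 0.66 ± 0.09, adjusted p = 7.75e-05). Ugt2b35 and Ugt2b36 rose by 0.73 and 0.37 on the log2 scale (adjusted p = 0.000362 and 0.00313). None of the 4 showed overlap of the groups. Of 15 carboxylesterases 5 rose (33.3%, against 5.33% of all genes) and none fell. Ces1g, a triglyceride and xenobiotic hydrolase, was at 48.03, 78.9 and 98.3 RPKM in control and 134, 151 and 178 in antibody libraries (log2 fold change 1.02 ± 0.13, adjusted p = 2.21e-05). Ces1d, which mobilises triglyceride for VLDL, was at 245, 263 and 284 RPKM in control and 356, 418 and 552 in antibody libraries (log2 fold change 0.70 ± 0.13, adjusted p = 0.00179), and Ces2g at 15.7, 18.9 and 20.6 RPKM in control and 22, 26.9 and 30.8 in antibody libraries (log2 fold change 0.52 ± 0.09, adjusted p = 0.00108), all without overlap. The carboxylesterase count was 3 to 6 with 1 library left out, moving by over 1.5 times without any of libraries 12, 14, 17, 18 or 21 to 23. Of 26 glutathione and sulfotransferases 3 fell (11.5%, against 2.12% of all genes), and 5 did without library 19. Gstm2 was at 72, 114 and 126 RPKM in control and 37.7, 42.2 and 68.2 in antibody libraries (log2 fold change -1.21 ± 0.14, adjusted p = 9.33e-06), Gstm7 changed by -0.49 ± 0.08 (adjusted p = 0.000523) and Gstk1 by -0.47 ± 0.10 (adjusted p = 0.00462). Sult5a1 was the only 1 that rose, at 1.55, 3.23 and 5.26 RPKM in control and 4.82, 10.3 and 13.4 in antibody libraries (log2 fold change 1.29 ± 0.22, adjusted p = 0.0006).

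In the bile acid list 8 of 28 genes rose (28.6%, against 5.33% of all genes) and 1 fell, with a median of 0.33. Cyp2c70, which makes the muricholic acids of mice, was at 49.2, 75.4 and 129 RPKM in control and 152, 194 and 263 in antibody libraries (log2 fold change 1.32 ± 0.16, adjusted p = 1.63e-05). Cyp27a1, which starts the acidic route, was at 151, 204 and 208 RPKM in control and 218, 263 and 294 in antibody libraries (log2 fold change 0.46 ± 0.08, adjusted p = 0.000698). Baat, which conjugates bile acids to taurine, was at 87.1, 100.1 and 106 RPKM in control and 112, 138 and 151 in antibody libraries (log2 fold change 0.46 ± 0.07, adjusted p = 0.000227), and Abcg5, part of the canalicular sterol exporter, at 15.3, 25.01 and 28.5 RPKM in control and 31.4, 38.7 and 41.9 in antibody libraries (log2 fold change 0.69 ± 0.12, adjusted p = 0.00119). The groups overlapped in none of the 4. Cyp7a1, which controls the classic route, was at 13.01, 18.6 and 26.4 RPKM in control and 26.6, 47.9 and 57.8 in antibody libraries. Its groups did not overlap either, but it did not pass (log2 fold change 1.28 ± 0.44, adjusted p = 0.0768), and without library 19 its adjusted p was 0.0425. Of the 8 calls 7 held without any 1 library, and without library 19 15 of the list rose. The gene that fell was Fgfr4, the receptor through which intestinal FGF15 acts on the liver, at -0.31 ± 0.09 (adjusted p = 0.0336), a call lost without any of libraries 12 to 14, 16 or 20 to 22 (adjusted p up to 0.265).

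Ifit1, Isg15, interferon-inducible GTPases and MHC genes rose. Type I interferons act at interferon-stimulated response elements (ISRE) and interferon gamma at GAS elements of promoters; their targets include antiviral proteins, GTPases that attack pathogen vacuoles, and the MHC. To show what the leading promoters look like, the 250 bases before the RefSeq start of 4 genes that rose are given from GRCm38.p6, 5′ to 3′ on the strand of the gene. Capitals mark matches to an ISRE-like motif, GAAA and GAAA separated by any 2 bases, on either strand, and overlapping matches run together. The intervals are chr19:34640639-34640888 (plus strand) for Ifit1, chr4:156200819-156201068 (minus strand) for Isg15, chr11:48992247-48992496 (minus strand) for Tgtp1 and chr5:92348890-92349139 (minus strand) for Cxcl10.
Ifit1: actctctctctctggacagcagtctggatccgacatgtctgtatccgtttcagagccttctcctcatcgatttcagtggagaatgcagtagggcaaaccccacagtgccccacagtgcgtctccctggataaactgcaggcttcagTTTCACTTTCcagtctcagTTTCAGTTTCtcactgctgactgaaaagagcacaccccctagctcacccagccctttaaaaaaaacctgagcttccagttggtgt
Isg15: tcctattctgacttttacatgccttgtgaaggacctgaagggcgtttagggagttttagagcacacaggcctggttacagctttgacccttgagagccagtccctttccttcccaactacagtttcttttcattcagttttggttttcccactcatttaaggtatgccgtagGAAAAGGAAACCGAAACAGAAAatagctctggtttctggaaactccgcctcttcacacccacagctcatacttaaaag
Tgtp1: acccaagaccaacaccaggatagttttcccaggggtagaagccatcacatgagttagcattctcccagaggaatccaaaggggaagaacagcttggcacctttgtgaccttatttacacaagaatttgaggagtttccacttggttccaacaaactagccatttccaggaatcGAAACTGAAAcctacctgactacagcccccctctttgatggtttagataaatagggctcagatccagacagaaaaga
Cxcl10: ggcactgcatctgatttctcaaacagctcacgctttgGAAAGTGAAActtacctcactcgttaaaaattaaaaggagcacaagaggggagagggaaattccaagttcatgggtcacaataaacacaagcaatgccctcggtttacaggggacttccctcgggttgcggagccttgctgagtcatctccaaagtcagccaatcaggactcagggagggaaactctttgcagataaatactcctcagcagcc
The matches begin 104 and 85 bases before the start in Ifit1, 78, 72 and 66 in Isg15, 77 in Tgtp1 and 213 in Cxcl10. In the 300-base RefSeq promoters (250 before and 50 after the start, either strand), the motif stood in 14 of the 20 interferon-stimulated genes that rose and have an entry, and in 7 of 8 GTPases. The share was 3.8% of all 9447 tested genes with an entry, 8 of 23 interferon-stimulated genes and 3 of 3 GTPases that did not pass, 3 of 12 MHC class I genes that rose, 2 of 8 that did not pass, and 0 of 3 MHC class II genes. A GAS motif, TTCNNNGAA, was in 4 of the 8 GTPases that rose, in 2 of 3 that did not pass and in 8.37% of all tested genes. The full cyclic AMP response element, TGACGTCA, was in 3.57% of all tested genes. Of 25 amino acid and urea genes that fell, 17 have an entry, and 0 of these held the element. The element is too rare for 0 of 17 to show whether these genes lack it. Among genes that rose, 1 of 3 MHC class II genes held it, and 0 of the interferon-stimulated, GTPase, MHC class I and Cyp1, Cyp2 and Cyp3 genes did. A match is a description of these letters and not of binding.

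Over the 4 lists of interferon-stimulated genes, GTPases and MHC classes I and II, 55 of 110 genes rose (50%, against 5.33% of all genes) and none fell. The median log2 fold change was 0.34, and 104 of the values were above 0. With 1 HFD library left out 42 to 64 rose, and 56 rose and 3 fell without libraries 19 and 20. In the fit to HFD libraries alone 32 rose, and without libraries 12, 13 and 20, which leaves 4 controls, 21 did.

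Among 57 interferon-stimulated genes 24 rose (42.1%, against 5.33% of all genes), or 14 to 32 with 1 library left out, moving by over 1.5 times without any of libraries 12, 14 or 18. The count was 13 in the fit to HFD libraries alone and 7 without libraries 12, 13 and 20. Ifit1, which binds foreign RNA caps, was at 1.702, 2.64 and 4.08 RPKM in control and 4.94, 8.103 and 9.86 in antibody libraries (log2 fold change 1.23 ± 0.18, adjusted p = 0.000116). Isg15, a ubiquitin-like modifier, was at 9.89, 15.95 and 21.4 RPKM in control and 22.2, 23.98 and 29.6 in antibody libraries (log2 fold change 0.67 ± 0.16, adjusted p = 0.0111). Rsad2, the antiviral protein viperin, was at 2.56, 2.89 and 3.33 RPKM in control and 4.12, 4.84 and 5.39 in antibody libraries (log2 fold change 0.57 ± 0.11, adjusted p = 0.00261), and Ifi44 at 0.609, 1.12 and 1.47 RPKM in control and 1.63, 2.33 and 3.41 in antibody libraries (log2 fold change 0.69 ± 0.13, adjusted p = 0.00133). In all 4 genes the groups were apart. Ifit3b, of the same cluster as Ifit1, rose by 0.60 (adjusted p = 0.000987).

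Of 19 interferon-inducible GTPases 12 rose (63.2%, against 5.33% of all genes), with all 19 values above 0 and a median of 0.73. The count was 8 in the fit to HFD libraries alone and 7 without libraries 12, 13 and 20. Tgtp1 (gene ID 21822, chromosome 11, 48985329 to 48992246 of GRCm38) was at 0.556, 1.15 and 1.54 RPKM in control and 3.15, 5.26 and 9.41 in antibody libraries (log2 fold change 1.63 ± 0.23, adjusted p = 7.19e-05). It has a near-identical copy, Tgtp2, so its reads may be split. Iigp1, which coats parasite vacuoles, was at 55.2, 72.9 and 90.3 RPKM in control and 118, 139 and 149 in antibody libraries (log2 fold change 0.90 ± 0.11, adjusted p = 9.41e-06). Ifi47 was at 5.93, 7.65 and 8.45 RPKM in control and 11.6, 15.4 and 18.9 in antibody libraries (log2 fold change 0.93 ± 0.13, adjusted p = 0.000123) and Irgm1, a regulator of the family, at 16.4, 20.2 and 24.6 RPKM in control and 26.7, 31.7 and 42 in antibody libraries (log2 fold change 0.68 ± 0.11, adjusted p = 0.000346). All 4 were without overlap. Igtp changed by 0.73 ± 0.16 (adjusted p = 0.00778) and the guanylate-binding protein gene Gbp2 by 0.76 ± 0.18 (adjusted p = 0.0128). The call of Igtp was lost in the fit to HFD libraries alone and without libraries 12, 13 and 20 (adjusted p up to 0.0909). That of Gbp2 was lost in the fit to HFD libraries alone and without libraries 12, 13 and 20 (adjusted p up to 0.0923).

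**Figure D4:**
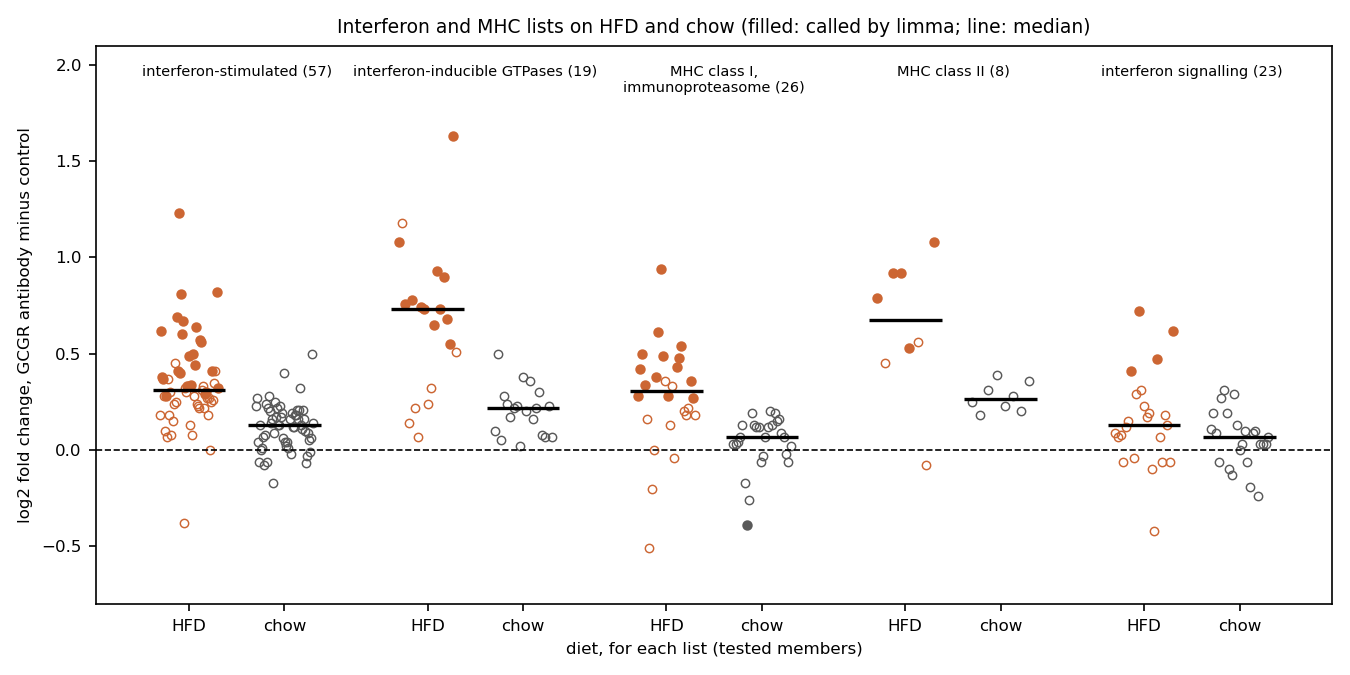
Log2 fold change with GCGR antibody (vertical axis) of every tested gene of 5 lists on HFD and on chow (horizontal axis), 1 point per gene, filled where limma called the gene and open where it did not; the short lines are list medians and the dashed line is 0. The GTPase median is 0.73 on HFD and 0.22 on chow.

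In MHC class I and the immunoproteasome 14 of 26 rose (53.8%, against 5.33% of all genes), and 13 to 15 did with 1 library left out. The count was 11 in the fit to HFD libraries alone and 7 without libraries 12, 13 and 20. The nonclassical class I gene H2-Q7 was at 16.02, 17.4 and 18.6 RPKM in control and 31.3, 33.97 and 39.1 in antibody libraries (log2 fold change 0.94 ± 0.14, adjusted p = 0.000187). The classical H2-K1 was at 542, 629 and 658 RPKM in control and 707, 759 and 918 in antibody libraries (log2 fold change 0.34 ± 0.07, adjusted p = 0.00448), H2-D1 changed by 0.50 ± 0.09 (adjusted p = 0.00183), and B2m, the shared light chain, was at 1224, 1348 and 1437 RPKM in control and 1492, 1663 and 1748 in antibody libraries (log2 fold change 0.28 ± 0.06, adjusted p = 0.00681), a call lost without libraries 12, 13 and 20 (adjusted p up to 0.078). Psmb10, a catalytic subunit of the immunoproteasome, was at 14.1, 15.5 and 18.1 RPKM in control and 19.4, 22.1 and 24.95 in antibody libraries (log2 fold change 0.43 ± 0.08, adjusted p = 0.00232). H2-Q7, H2-K1, B2m and Psmb10 showed no overlap, while the transporter Tap1 did not pass (0.22 ± 0.11, adjusted p = 0.246).

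MHC class II genes, which professional antigen-presenting cells express, rose in 5 of 8 cases (62.5%, against 5.33% of all genes), 0 of them in the fit to HFD libraries alone, 2 without libraries 19 and 20 and 0 without libraries 12, 13 and 20. H2-Ab1 was at 7.49, 10.3 and 20.9 RPKM in control and 12.9, 21.3 and 36.1 in antibody libraries (log2 fold change 0.92 ± 0.21, adjusted p = 0.0095), H2-Eb1 at 5.18, 6.94 and 15.3 RPKM in control and 8.501, 15.98 and 40.5 in antibody libraries (log2 fold change 1.08 ± 0.25, adjusted p = 0.00992) and the invariant chain Cd74 at 21.99, 29.1 and 57.1 RPKM in control and 28.02, 57.4 and 88.01 in antibody libraries (log2 fold change 0.79 ± 0.21, adjusted p = 0.0257). In each, antibody libraries 18, 22 and 23 lay within the control range and libraries 19, 20 and 21 above it, and control library 17 was the highest control. The call of H2-Ab1 was lost in the fit to HFD libraries alone and without libraries 12, 13 and 20 (adjusted p up to 0.0983). That of H2-Eb1 was lost in the fit to HFD libraries alone and without libraries 12, 13 and 20 (adjusted p up to 0.0829). That of Cd74 was lost without any of libraries 12 to 14, 16, 20 or 21 (adjusted p up to 0.187).

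Of 23 genes of the interferon receptors, kinases, transcription factors and inhibitors 4 rose (17.4%, against 5.33% of all genes). Irf7, which amplifies type I interferon, was at 11, 14.8 and 17.3 RPKM in control and 16.1, 24.2 and 36.6 in antibody libraries (log2 fold change 0.72 ± 0.15, adjusted p = 0.00348), and Usp18, which removes ISG15 and damps the receptor, at 2.89, 5.26 and 6.56 RPKM in control and 6.78, 7.37 and 11.6 in antibody libraries (log2 fold change 0.62 ± 0.14, adjusted p = 0.00976), a call lost without libraries 12, 13 and 20 (adjusted p up to 0.108). Irf2 changed by 0.41 ± 0.10 (adjusted p = 0.0177), a call lost without library 12 (adjusted p up to 0.19). Irf1, the first IRF that interferon gamma induces, did not pass (0.15 ± 0.13, adjusted p = 0.523), nor did Nlrc5, the transactivator of MHC class I (0.33 ± 0.12, adjusted p = 0.0979). Among chemokines, Cxcl10, which attracts CXCR3-bearing T cells, was at 0.715, 2.19 and 3.43 RPKM in control and 4.01, 6.07 and 6.97 in antibody libraries (log2 fold change 1.12 ± 0.18, adjusted p = 0.000362), with no overlap. Cxcl9 and Ccl5 changed by 0.98 ± 0.24 (adjusted p = 0.0126) and 1.15 ± 0.27 (adjusted p = 0.0111). The call of Cxcl9 was lost in the fit to HFD libraries alone and without libraries 19 and 20 or libraries 12, 13 and 20 (adjusted p up to 0.0999). That of Ccl5 was lost in the fit to HFD libraries alone and without libraries 12, 13 and 20 (adjusted p up to 0.0852).

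Of 8 tested T and NK cell markers 5 rose (Cd3g, Il2rb, Ccl5, Ptprcap and Thy1) and 1 fell. These are 62.5% and 12.5%, against 5.33% and 2.12% of all genes. The count of risers, however, was 1 to 5 with 1 library left out, moving by over 1.5 times without any of libraries 12, 14, 16 to 18, 20 or 21. It was 0 without libraries 12, 13 and 20. Only 1 of the 5 calls, that of Ccl5, held without any 1 library, so the call of Ptprcap did not hold throughout. The T cell receptor subunit Cd3g was at 0.165, 0.529 and 0.576 RPKM in control and 0.602, 0.729 and 1.25 in antibody libraries (log2 fold change 0.37 ± 0.10, adjusted p = 0.0232), a call lost without library 14 or 21 (adjusted p up to 0.0853). The call of Il2rb was lost without any of libraries 12, 14, 16, 18, 20 or 21 (adjusted p up to 0.177). That of Thy1 was lost without any of libraries 12, 14, 16 to 18, 20 or 23 (adjusted p up to 0.16). Summed over the 23 markers in the table, levels were 14.95 to 18.33 RPKM in control and 13.41 to 28.15 in antibody libraries, highest in library 19 and within or below the control range in libraries 18, 22 and 23. The 23 macrophage and Kupffer cell markers summed to 124.0 to 246.8 and 130.3 to 238.7 RPKM, with Cd14 the only 1 of 21 called higher, at 0.59 ± 0.18 (adjusted p = 0.0421), a call lost without any of libraries 12 to 16 or 19 to 22 (adjusted p up to 0.282). B cell markers summed to 2.16 to 4.324 and 2.909 to 5.773 RPKM, dendritic cell markers to 1.299 to 3.117 and 1.88 to 4.975, with 0 of 4 and 1 of 2 called higher, and no defining marker of these 4 lists was at 0 in all 12 libraries. The part of these cells in the rise of interferon and MHC genes was not tested, and in bulk RNA more cells of a type and more RNA per cell cannot be told apart. Zap70, the kinase of the T cell receptor, fell, at 8.54, 10.6 and 12.7 RPKM in control and 3.23, 4.23 and 6.46 in antibody libraries (log2 fold change -1.07 ± 0.14, adjusted p = 4.78e-05), with all antibody libraries below the controls, opposite in direction to Cd3g and Thy1.

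Markers of other cells of the liver changed in few cases. Of 22 stellate cell and matrix markers 2 were called higher (9.09%, against 5.33% of all genes), Lum and Mmp2, and 1 of these held without any 1 library. The call of Lum was lost in the fit to HFD libraries alone and without libraries 19 and 20 or libraries 12, 13 and 20 (adjusted p up to 0.0874). That of Mmp2 was lost without any of libraries 12, 14, 16, 20 or 22 (adjusted p up to 0.132). The count was 1 to 7 with 1 library left out and moved by over 1.5 times without any of libraries 12, 14, 16, 17, 20, 22 or 23. It was 0 in the fit to HFD libraries alone, 0 without libraries 19 and 20, 0 without libraries 12, 13 and 20 and 6 without libraries 21 and 23. The hedgehog inhibitor Hhip fell by 0.37 (adjusted p = 0.00365). The 24 genes of the list in the table summed to 135.0 to 302.2 RPKM in antibody libraries, the highest sums being those of libraries 19 and 20, against 143.1 to 249.3. Krt23, a keratin of bile ducts and injured hepatocytes, fell, at 1.08, 2.295 and 3.39 RPKM in control and 0.386, 0.85 and 1.64 in antibody libraries (log2 fold change -0.77 ± 0.16, adjusted p = 0.00508). It was the only 1 of 4 tested bile duct markers that passed, and the log2 fold changes of these markers reached 0.57. The 6 bile duct markers in the table summed to 12.21 to 33.31 RPKM in control and 13.34 to 41.51 in antibody libraries, highest in libraries 20 and 19. Albumin, Alb, was the 1 of 7 hepatocyte markers that fell, at 31755, 36484 and 40885 RPKM in control and 26485, 28034 and 30100 in antibody libraries (log2 fold change -0.37 ± 0.09, adjusted p = 0.0137), a call lost with no filter and without libraries 12, 13 and 20 or libraries 21 and 23 (adjusted p up to 0.304). The count was 1 to 3 with 1 library left out and moved by over 1.5 times without library 15 or 19. Alas2, the erythroid enzyme of haem synthesis, was at 48.7, 54.3 and 59.5 RPKM in control and 22.97, 32.7 and 41.5 in antibody libraries (log2 fold change -0.73 ± 0.10, adjusted p = 8.31e-05), without overlap.

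Complement and coagulation genes of hepatocytes rose in a minority. In the complement list 4 of 29 rose (13.8%, against 5.33% of all genes) and none fell. Without library 19, 8 rose. C1ra and C1s1, the proteases of the first component, lie side by side on chromosome 6. C1ra was at 80.5, 97.2 and 101 RPKM in control and 116, 168 and 179 in antibody libraries (log2 fold change 0.72 ± 0.08, adjusted p = 5.05e-06) and C1s1 at 167, 169 and 189.7 RPKM in control and 214, 259 and 291 in antibody libraries (log2 fold change 0.58 ± 0.06, adjusted p = 3.22e-06). In both, all antibody libraries were above all controls. C2, which forms the classical convertase, changed by 0.43 ± 0.10 (adjusted p = 0.00995), a call lost without libraries 21 and 23 (adjusted p up to 0.0618). In the coagulation list 3 of 25 were called higher (12%, against 5.33% of all genes), and 1 of these calls held without any 1 library. The count was 1 to 6 with 1 library left out and moved by over 1.5 times without any of libraries 12, 14, 15, 18, 19 or 21 to 23. Of 26 acute phase genes Orm3, an orosomucoid with near-identical copies, was at 3.39, 6.66 and 22.8 RPKM in control and 15.1, 29.4 and 67.2 in antibody libraries (log2 fold change 1.77 ± 0.49, adjusted p = 0.0282), a call lost without any of libraries 12, 13, 16, 20 or 22 (adjusted p up to 0.234).

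Hepcidin was higher with GCGR antibody and varied widely within both groups. Hamp, the hormone that blocks iron export, was at 2.92, 36 and 253 RPKM in control and 144, 417 and 909 in antibody libraries (log2 fold change 3.57 ± 0.72, adjusted p = 0.0034), and 5 of 6 antibody libraries lay above all controls. Hamp2, its near-identical copy, changed by 1.95 ± 0.55 (adjusted p = 0.0331), a call lost without any of libraries 14, 15, 17, 19, 20 or 22 (adjusted p up to 0.137). Atoh8, a target of BMP signalling in hepatocytes, was at 1.87, 2.05 and 2.98 RPKM in control and 3.18, 3.99 and 7.13 in antibody libraries (log2 fold change 0.73 ± 0.19, adjusted p = 0.0203), a call lost without libraries 19 and 20 or libraries 12, 13 and 20 (adjusted p up to 0.0667). Id1, another target, did not pass (0.52 ± 0.25, adjusted p = 0.22). Cp, ceruloplasmin, which oxidises iron for transferrin, rose, at 243, 279 and 318 RPKM in control and 321, 362 and 453 in antibody libraries (log2 fold change 0.41 ± 0.08, adjusted p = 0.00195). Neither Atoh8 nor Cp showed overlap.

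The count of sex-biased genes that passed depended on which libraries were included. Growth hormone pulses keep male-biased genes of mouse liver on. Of 35 male-biased genes 5 rose (14.3%, against 5.33% of all genes) and 1 fell (2.86%, against 2.12%), with a median log2 fold change of 0.58. Without libraries 19 and 20, 24 rose, and with 1 library left out 2 to 14 did, the count moving by over 1.5 times without any of libraries 12, 14 or 16 to 23. Mup20, a major urinary protein that acts as a male pheromone, was at 2166, 4557 and 5281 RPKM in control and 7265, 9801 and 14265 in antibody libraries (log2 fold change 1.38 ± 0.23, adjusted p = 0.000434), with no overlap. Selenbp2, a selenium-binding protein, was at 11.5, 26.7 and 37.5 RPKM in control and 40.02, 87.2 and 717 in antibody libraries (log2 fold change 2.51 ± 0.55, adjusted p = 0.00635), a call lost in the fit to HFD libraries alone (adjusted p up to 0.0648), and without libraries 21 and 23 its value was 1.37. Both belong to families of near-identical copies. Igf1, the growth hormone effector that liver secretes, fell by 0.28, a call lost without any of libraries 12, 13, 16, 18, 20 or 22 (adjusted p up to 0.244). The receptor gene Ghr did not pass (0.05 ± 0.08, adjusted p = 0.731). Of 23 female-biased genes 6 rose (26.1%, against 5.33% of all genes) and 2 fell (8.7%, against 2.12%), the latter count being 1 to 3 with 1 library left out and moved by over 1.5 times without any of libraries 14, 16 to 18 or 21 to 23. Among them Fmo1, a flavin monooxygenase, was at 61.4, 68.96 and 86.4 RPKM in control and 88.97, 104 and 129 in antibody libraries (log2 fold change 0.56 ± 0.09, adjusted p = 0.00037) and Atp6v0d2, a subunit of the proton pump, at 0.563, 1.33 and 1.87 RPKM in control and 1.99, 2.397 and 3.49 in antibody libraries (log2 fold change 0.63 ± 0.14, adjusted p = 0.00564), both without overlap.

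Zonal genes split within each zone. Of 22 periportal genes 9 fell (40.9%, against 2.12% of all genes) and 3 rose (13.6%, against 5.33%), and most that fell are the amino acid and urea genes above. Hsd17b6, a periportal retinol and steroid dehydrogenase, rose, at 41.1, 64.4 and 81.6 RPKM in control and 85.6, 123 and 160.2 in antibody libraries (log2 fold change 0.98 ± 0.19, adjusted p = 0.00241). Of 22 pericentral genes 4 rose (18.2%, against 5.33% of all genes) and 3 fell (13.6%, against 2.12%). Aldh1a1, retinaldehyde dehydrogenase, was at 726, 775 and 829 RPKM in control and 956, 1184 and 1331 in antibody libraries (log2 fold change 0.59 ± 0.08, adjusted p = 6.51e-05). Lhpp, a histidine phosphatase, fell, at 32.9, 39.99 and 50.9 RPKM in control and 14.6, 17.2 and 19.9 in antibody libraries (log2 fold change -1.23 ± 0.11, adjusted p = 1.47e-07). In these 3 genes the groups did not overlap.

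Eif4ebp3 rose and Atf5 fell. Of 19 translation repressors and mTORC1 sensors 4 rose (21.1%, against 5.33% of all genes) and none fell, a count that was 2 to 4 with 1 library left out and moved by over 1.5 times without any of libraries 12, 16, 21 or 22. Eif4ebp3, a repressor of cap-dependent translation, was at 6.44, 7.03 and 7.98 RPKM in control and 13.9, 30.97 and 57.6 in antibody libraries (log2 fold change 1.86 ± 0.30, adjusted p = 0.000362), with every antibody library above the controls. Slc38a9, a lysosomal amino acid sensor, Rheb, the GTPase that activates mTORC1, and Deptor, an inhibitor of mTOR, changed by 0.22 ± 0.06 (adjusted p = 0.0257), 0.21 ± 0.06 (adjusted p = 0.0365) and 0.27 ± 0.06 (adjusted p = 0.0127). The call of Slc38a9 was lost without any of libraries 12, 14 to 16, 21 or 22 (adjusted p up to 0.0815). That of Rheb was lost without any of libraries 12, 13, 16 or 19 to 22 (adjusted p up to 0.309). That of Deptor was lost after median-ratio scaling and without libraries 21 and 23 (adjusted p up to 0.0544). Atf5, a transcription factor of the mitochondrial and integrated stress response, was at 202, 241 and 291 RPKM in control and 85.4, 115 and 185 in antibody libraries (log2 fold change -1.01 ± 0.15, adjusted p = 0.000169) and was the only 1 of 20 ATF4-pathway genes that fell. None of 22 endoplasmic reticulum chaperones or 20 aminoacyl-tRNA synthetases passed, and at most 1 of each did with 1 library left out. Of 81 ribosomal protein genes 2 fell (Rpl4 and Rplp1), of 74 nuclear oxidative phosphorylation genes 2 (Atp5d and Cox7a2), of 34 proteasome genes 1 (Psmd9) and of 13 mitochondrially encoded genes none, with medians of -0.12, -0.09, -0.06 and -0.06. The ribosomal, oxidative phosphorylation and proteasome shares that fell, 2.47%, 2.7% and 2.94%, were near the 2.12% of all genes. With 1 library left out the ribosomal count ran from 0 to 10, the oxidative phosphorylation count from 0 to 12, the proteasome count from 0 to 7 and the mitochondrial count from 0 to 4. None of these lists' calls held throughout. The ribosomal count moved by over 1.5 times without any of libraries 12, 14 or 17 to 20. The oxidative phosphorylation count did so without any of libraries 12 to 23, and the proteasome count without any of libraries 12, 14 to 16 or 19 to 22. The mitochondrial count did so without library 19. The call of Rpl4 was lost without library 14 (adjusted p up to 0.106). That of Rplp1 was lost without any of libraries 12, 14, 17, 18 or 20 (adjusted p up to 0.0853). The call of Atp5d was lost without any of libraries 12, 14 to 18 or 20 to 23 (adjusted p up to 0.162). That of Cox7a2 was lost without any of libraries 12, 14, 16 to 18 or 20 to 23 (adjusted p up to 0.148). That of Psmd9 was lost without any of libraries 12, 14 to 16, 21 or 22 (adjusted p up to 0.141). Rnr1, the mitochondrial 12S ribosomal RNA, was lower in the antibody group, at 1941, 1998 and 2185 RPKM in control and 924, 1091 and 1760 in antibody libraries (log2 fold change -0.83 ± 0.12, adjusted p = 0.000107). Library 19 was the highest of the antibody group.

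Clock genes gave 2 calls of 21, or 9.52%, near the 7.45% of all genes. Nr1d1, a nuclear receptor that represses Arntl, fell, at 26.4, 32 and 35.5 RPKM in control and 13.8, 17.8 and 30.6 in antibody libraries (log2 fold change -0.60 ± 0.19, adjusted p = 0.0493), a call lost without any of libraries 12 to 17, 19, 20, 22 or 23 (adjusted p up to 0.176). Arntl changed by -0.38 ± 0.30 (adjusted p = 0.466). The time of sampling is not in the labels, and the libraries with high Arntl and low Dbp fall in both groups.

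The rule for named genes gave further genes outside these lists. Gas2, a cytoskeletal protein, had the smallest adjusted p of all genes, at 17.5, 20.2 and 21.4 RPKM in control and 7.804, 8.904 and 10.5 in antibody libraries (log2 fold change -1.07 ± 0.07, adjusted p = 7.35e-10). Fam25c, a gene of little-known function, was at 54.9, 67.4 and 115 RPKM in control and 23.7, 29.5 and 33.5 in antibody libraries (log2 fold change -1.32 ± 0.14, adjusted p = 2.6e-06). Mmd2, a progestin and adipoQ receptor family member, was at 2.23, 3.93 and 6.95 RPKM in control and 0, 0.342 and 0.838 in antibody libraries (log2 fold change -1.85 ± 0.21, adjusted p = 8.76e-06), and Gnat1, the rod photoreceptor transducin, at 2.32, 3.26 and 4.696 RPKM in control and 0.353, 0.802 and 1.43 in antibody libraries (log2 fold change -1.22 ± 0.20, adjusted p = 0.000419). In these 4 genes no antibody library reached the controls. Pcp4l1, a small calmodulin-binding protein, was at 2.26, 2.76 and 7.22 RPKM in control and 9.62, 11.9 and 16.3 in antibody libraries (log2 fold change 1.65 ± 0.17, adjusted p = 2.65e-06). Serpinb1a, an inhibitor of neutrophil elastase, was at 1.04, 1.26 and 2.35 RPKM in control and 2.83, 5.33 and 7.85 in antibody libraries (log2 fold change 1.34 ± 0.19, adjusted p = 9.83e-05), and Rarres1, a retinoic acid-responsive carboxypeptidase inhibitor, at 11.3, 22.3 and 33.8 RPKM in control and 41.5, 50.2 and 57.9 in antibody libraries (log2 fold change 1.23 ± 0.22, adjusted p = 0.00117). These 3 were higher in all antibody libraries than in any control. Cav1, which builds caveolae, was at 0.586, 0.847 and 1.32 RPKM in control and 1.02, 2.81 and 18.3 in antibody libraries (log2 fold change 1.40 ± 0.40, adjusted p = 0.0331), a call lost without any of libraries 12, 14 to 16, 18, 21 or 23 (adjusted p up to 0.135), and without libraries 21 and 23 its log2 fold change was 0.56.

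Several genes outside the rule were chosen after their values were seen. Fh1, the fumarase that takes up the fumarate of the urea cycle, fell, at 93.9, 102 and 112 RPKM in control and 64.2, 72.1 and 77.8 in antibody libraries (log2 fold change -0.52 ± 0.06, adjusted p = 1.57e-05). Crat, carnitine acetyltransferase, was at 18.1, 33.2 and 42.1 RPKM in control and 7.304, 15.3 and 26.4 in antibody libraries (log2 fold change -1.10 ± 0.22, adjusted p = 0.00309). Lamb3, a laminin chain, was at 1.31, 5.01 and 7.94 RPKM in control and 0.524, 1.004 and 1.64 in antibody libraries (log2 fold change -1.41 ± 0.20, adjusted p = 9.83e-05). The thrombin receptor F2r was at 3.76, 4.66 and 7.13 RPKM in control and 8.84, 10.5 and 12.2 in antibody libraries (log2 fold change 0.97 ± 0.12, adjusted p = 1.6e-05) and Nrp1, a co-receptor of VEGF and semaphorins, at 9.197, 10.8 and 11.8 RPKM in control and 16.1, 19.3 and 30.5 in antibody libraries (log2 fold change 0.89 ± 0.11, adjusted p = 2.45e-05). Ctso, a lysosomal cysteine protease, was at 14.4, 16.5 and 16.9 RPKM in control and 17.3, 27.5 and 33.3 in antibody libraries (log2 fold change 0.66 ± 0.11, adjusted p = 0.000366). Fh1, F2r, Nrp1 and Ctso showed no overlap, and Crat and Lamb3 overlapped in 1 library of each group. Cd48, a surface protein of leukocytes, was at 0.746, 0.8396 and 1.34 RPKM in control and 1.21, 1.54 and 1.73 in antibody libraries (log2 fold change 0.41 ± 0.08, adjusted p = 0.00151). Ptprc, the pan-leukocyte antigen CD45, changed by 0.40 ± 0.12 (adjusted p = 0.0494), a call lost without any of libraries 12 to 16 or 18 to 22 (adjusted p up to 0.324).

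On chow the same antibody changed 113 genes (0.946%), 47 higher and 66 lower. No library enters both antibody effects. Of those genes, 60 passed in the same direction on HFD, 41 of them lower and 19 higher, and 0 in the opposite direction. This overlap is 53.1% of the chow calls and 6.75% of the HFD calls. In the amino acid and urea lists 22 genes fell on chow against 25 on HFD. Got1, Gls2, Oat and Ass1 changed on chow by -2.16, -1.36, -1.75 and -1.30 on the log2 scale, beside -2.09, -1.63, -1.72 and -1.20 on HFD. In the interferon and MHC lists 0 rose on chow, with a median of 0.13, and the test of the difference between the diets passed in 0 of the 110 genes.

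That test passed in 24 genes (0.201%). Cyp3a11 had the smallest adjusted p: its antibody effect on HFD exceeded that on chow by 1.73 ± 0.20 (adjusted p = 0.00021). Cyp17a1 differed by -2.35 ± 0.36 (adjusted p = 0.0054), Fam25c by -1.29 ± 0.20 (adjusted p = 0.0054) and Odf3b, an outer dense fibre protein, by 0.86 ± 0.14 (adjusted p = 0.0099). On chow their changes were -0.07, -0.76, -0.02 and -0.06. Odf3b was at 2.68, 2.91 and 3.69 RPKM in control and 5.02, 6.01 and 7.59 in antibody libraries (log2 fold change 0.81 ± 0.10, adjusted p = 1.63e-05) on HFD. Gas2 and Cbs were lower on both diets and more so on HFD, with differences of -0.53 ± 0.10 (adjusted p = 0.0278) and -0.63 ± 0.12 (adjusted p = 0.0343) and changes on chow of -0.54 and -0.44. Gypc, a red cell membrane glycoprotein, differed by 0.93 ± 0.18 (adjusted p = 0.0343), Atp6v0d2 by 1.0 ± 0.20 (adjusted p = 0.0381), and Pcolce2, a procollagen processing enhancer, by -0.58 ± 0.11 (adjusted p = 0.0343). Pcolce2 was called on chow (0.34, adjusted p = 0.0367) and not on HFD (log2 fold change -0.24 ± 0.08, adjusted p = 0.0519).

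Also among the 24 were 5 genes described above: Ces1g (0.93 ± 0.19, adjusted p = 0.0381), Cyp3a44 (0.84 ± 0.17, adjusted p = 0.0381), C1ra (0.56 ± 0.12, adjusted p = 0.0439), Aldh1a1 (0.56 ± 0.12, adjusted p = 0.0439) and Sult5a1 (1.52 ± 0.32, adjusted p = 0.0439). A further 9 fall outside the rule and are named after their values were seen. Sgk2, a kinase of the SGK family, was at 28.1, 31.6 and 39.3 RPKM in control and 13.98, 17.9 and 22.7 in antibody libraries on HFD (log2 fold change -0.81 ± 0.09, adjusted p = 5.05e-06), with a difference between diets of -0.65 ± 0.13 (adjusted p = 0.0381). Lin7a was at 3.65, 4.76 and 5.32 RPKM in control and 6.99, 8.34 and 9.78 in antibody libraries (log2 fold change 0.72 ± 0.07, adjusted p = 1.24e-06), with a difference between diets of 0.50 ± 0.10 (adjusted p = 0.0439). Gpld1, which cleaves GPI anchors, Enpp5 and Phyhd1 rose on HFD by 0.55, 0.61 and 0.31, with differences of 0.61 ± 0.12 (adjusted p = 0.0381), 0.58 ± 0.12 (adjusted p = 0.0439) and 0.38 ± 0.08 (adjusted p = 0.0381). Pnpla7, a lysophospholipase, and Sel1l3 fell on HFD by 0.59 and 0.25 and differed by -0.60 ± 0.12 (adjusted p = 0.0439) and -0.49 ± 0.10 (adjusted p = 0.0381). The call of Sel1l3 was lost without library 17 or 22 (adjusted p up to 0.0607). Mat1a, the methionine adenosyltransferase of adult hepatocytes, changed by -0.11 on HFD and -0.77 on chow (difference 0.67 ± 0.14, adjusted p = 0.0439), and Hspb6, a small heat shock protein, by -0.18 and 0.43 (difference -0.62 ± 0.12, adjusted p = 0.0381). The count of 24 moved to 132 without libraries 19 and 20 and ranged from 5 to 65 with 1 of the 23 libraries left out.

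**Figure D5:**
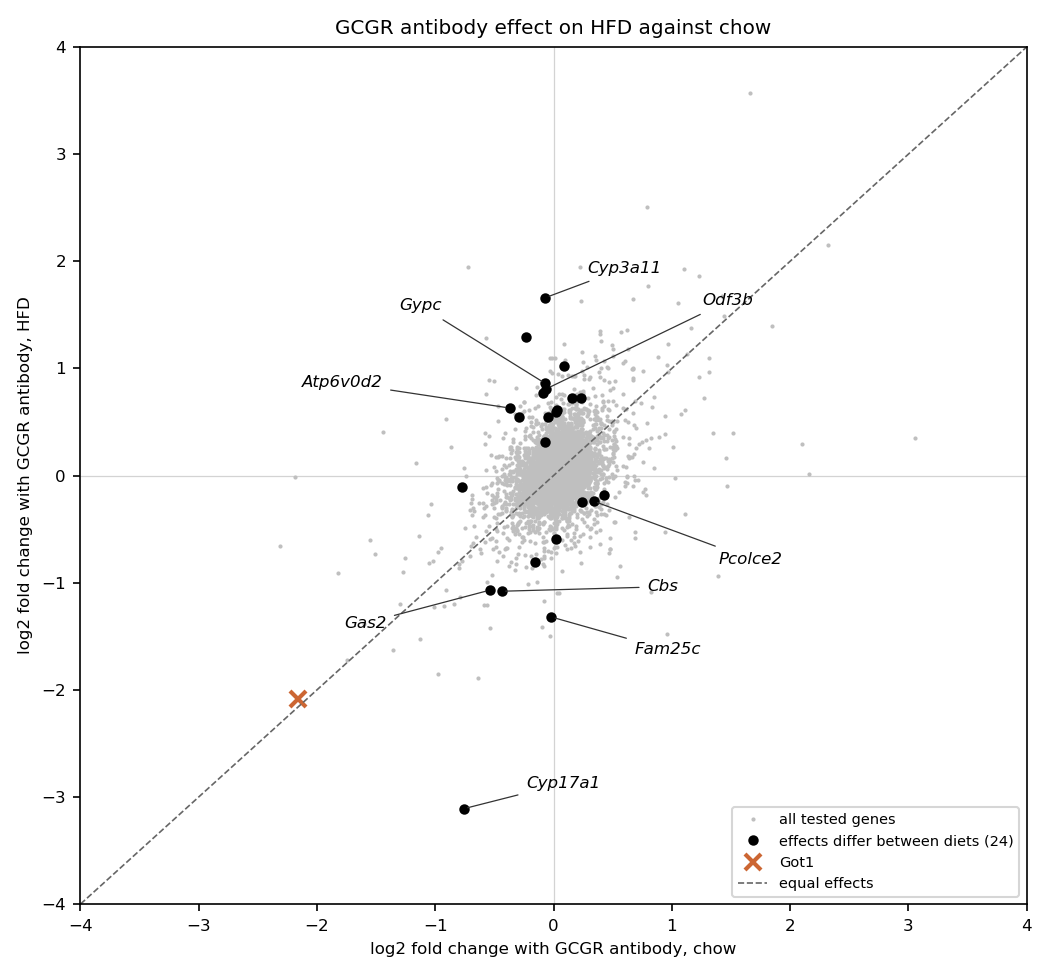
Log2 fold change with GCGR antibody on chow (horizontal axis) and on HFD (vertical axis) of all 11939 tested genes (grey points), with the 24 genes whose effects differ between the diets in black and 9 of those with the smallest adjusted p labelled; the dashed line marks equal effects. Cyp3a11 lies at 1.66 on HFD and -0.07 on chow, and Got1, marked by a cross, lies near the line of equal effects.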

How the data were processed

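Liver RNA was made into libraries with the KAPA stranded mRNA kit and 12 PCR cycles and read for 33 cycles from 1 end on the HiSeq 2500, per the labels' protocols. The submitters' processing notes name bcl2fastq 2.17, FastQC and GRCm38; the aligner, counter and annotation behind the table are not stated there. Values in the table deposited by the authors are RPKM per gene in 23 libraries, with no counts, so RPKM was tested on a log2 scale and not with a count model. Near-identical gene copies may share reads.

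Groups followed the library titles. log2(RPKM + 1) was fitted in limma 3.58.1 (R 4.3.3) with 4 group means over all 23 libraries and a mean-variance trend, for genes that reached an RPKM of 0.5 in 5 or more libraries. Tests were two-sided and p-values were adjusted by Benjamini and Hochberg over all 11939 genes. The design gives no replicate pairs.

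Relative depth was read from 2966 low genes, whose lowest values were taken as single reads. Of their values under 6 such steps, 66.8% lay within 0.05 steps of a whole multiple. The number of reads came from 571 of these genes with a single transcript. Depth limits low genes: in a typical library 1 read of a gene of 1 kb is a small fraction of 1 RPKM, and intervals for counting error were not computed because the counts are not known.

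The genes and the 73 gene lists were chosen with earlier results of these data known. Named genes are the 10 largest increases and decreases among called genes without overlap between groups and with the higher group averaging at least 1 RPKM, up to 4 called members of each list and direction, key genes of each list, and the 10 genes of smallest adjusted p for the difference between diets. Some genes that the rule gives are not reported here. Genes beyond this rule were chosen after their values were seen: those so named in the text, and Rnr1. Alternatives changed the fit, pseudocount, filter, scaling, weights and test, and left out libraries singly or together; leaving out libraries 12, 13 and 20, or 21 and 23, was chosen after seeing the data. Promoters are RefSeq entries for GRCm38.p6, matched by gene ID.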

Additional observations from a re-analysis of the deposited data

Results flagged for a closer look

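In 33 of 364 pairs of a named gene and an HFD group, 1 library lay far from the other 5 by Dixon's criterion. The criterion is set so that about 1 in 20 groups of normally distributed values would pass. It was applied to RPKM, which need not be normal, and the pairs share libraries. An excess over chance therefore cannot be read from this count. The genes of these pairs include steps of amino acid and glucose metabolism and clock genes in library 20, which also had the highest Pck1 and Tat of all 12 libraries. In library 20 these were Arntl at 2.54, Atoh8 at 7.13, Dbp at 12.9, Gbe1 at 97.2, Kiss1 at 0.605, Pck1 at 686, Sds at 96.8, Slc7a2 at 49.2 and Tat at 499 RPKM. In library 19 these were Atp5d at 246, Cyp17a1 at 3.93, Cyp7a1 at 26.6, Enpp5 at 10.6, Gstk1 at 139, Gstm2 at 68.2, H2-K1 at 918, Hgd at 189, Rnr1 at 1760, Rpl4 at 252, Slc3a1 at 10.1 and Ugt2b34 at 136 RPKM. In library 17 these were C1s1 at 189.7, Cd48 at 1.34, H2-Ab1 at 20.9, H2-Eb1 at 15.3 and Ugt1a9 at 28.7 RPKM. The others were Atoh8 at 2.98 RPKM in library 12, Fgfr4 at 13.7 RPKM in library 18, Got2 at 254 RPKM in library 13, Mat1a at 1006 RPKM in library 16, Odf3b at 3.69 RPKM in library 15, Pcp4l1 at 7.22 RPKM in library 14 and Pnpla7 at 21.8 RPKM in library 21.

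The antibody effect differed between HFD and chow, by limma's test of the difference at an adjusted p under 0.05, in 23 of the genes named here. The effect on HFD exceeded that on chow, in log2 units, for Aldh1a1 (0.56), Atp6v0d2 (1.0), C1ra (0.56), Ces1g (0.93), Cyp3a11 (1.73), Cyp3a44 (0.84), Enpp5 (0.58), Gpld1 (0.61), Gypc (0.93), Lin7a (0.50), Mat1a (0.67), Odf3b (0.86), Phyhd1 (0.38) and Sult5a1 (1.52). It was below that on chow for Cbs (-0.63), Cyp17a1 (-2.35), Fam25c (-1.29), Gas2 (-0.53), Hspb6 (-0.62), Pcolce2 (-0.58), Pnpla7 (-0.60), Sel1l3 (-0.49) and Sgk2 (-0.65).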

How the results depend on the processing

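Of the 161 named genes called on HFD, 110 kept their direction and call under all limma alternatives. The counts of called genes were less stable. Fitted to the HFD libraries alone, 288 genes were higher and 135 lower. Sample quality weights gave 1414 and 619, and 190 for the difference between diets. Median-ratio scaling gave 432 higher and 419 lower. The difference between diets was called in 8 genes with no filter and in 9 with scaling without the 10 most abundant genes. Without libraries 19 and 20 the counts were 839, 472 and 132, and 505 of the higher and 216 of the lower genes remained. Without libraries 12, 13 and 20 they were 292, 230 and 14, and without libraries 21 and 23 542, 161 and 19. With 1 library left out, 375 to 1151 genes were higher, 169 to 453 lower, and 5 to 65 differed between diets. The exact rank-sum test, two-sided on 6 against 6 libraries, called 0 higher and 0 lower after adjustment, where the smallest possible p is 0.00216 and the smallest adjusted p 0.076. At an unadjusted p under 0.05 it gave 1478 higher and 579 lower. The fit to HFD libraries alone has fewer samples and its own estimate of spread, and the rank test has coarse steps. The cause of these shifts was not tested.

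Reversed signs arose in genes with no call: G6pc was at 0.00 without antibody library 19, Gcgr was at -0.04 under median-ratio scaling and Gcgr was at -0.01 without control library 17 on the log2 scale. With 1 library left out, log2 fold changes ran from -0.49 to 0.00 for G6pc and from -0.01 to 0.02 for Gcgr. No paired analysis was possible because the groups compared share no replicate numbers. Counts behind the RPKM values are not known, so the precision of low genes cannot be given.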
